A study of Mus musculus with 19 samples.

Results

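The elastic fibre genes described here were 10 genes of mouse plantaris tendon, chosen by symbol for the proteins they encode: elastin (Eln), the fibrillins Fbn1 and Fbn2, the fibulin family Fbln1, Fbln2, Fbln5, Efemp1 and Efemp2, and the microfibril-associated proteins Mfap4 and Mfap5. All 10 were among the 24972 genes listed, and all 10 were among the 16625 that passed the filter on low values. RNA sequencing had been done on 19 libraries in 5 groups. There were 4 libraries each from Scx- mice and Scx+ mice 7 days into a growth stimulus, 4 each from Scx- and Scx+ mice at 14 days, and 3 from Scx+ control mice that had no growth stimulus. All 16 stimulated libraries came from mice given tamoxifen, whereas the control mice had none, so the stimulus and the tamoxifen cannot be told apart in any comparison with the control. No unstimulated Scx- group was present. Scx- denotes a targeted deletion of scleraxis, a transcription factor of tendon cells. The alleles, the Cre driver, the kind of stimulus, the strain, age and sex are not given in the sources used here. Nothing in the labels says that replicates came from different animals, so p-values measure the spread between these libraries.

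An elastic fibre is a core of cross-linked elastin laid on a scaffold of fibrillin microfibrils. Fibulins and microfibril-associated proteins join the parts, and lysyl oxidases cross-link the elastin. In tendon these fibres lie around the cells and in the thin matrix between fascicles, where they let the tissue stretch and recoil.

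Values are the authors' scaled signal after a further rescaling by medians of ratios, called signal below. How many reads a value rests on is unknown. Deposited totals ran from 36.6 to 79.8 M (mega) units per library, and the 3 controls held the highest totals. Scx itself had a signal of 1.7 to 17.2 in the 8 Scx- libraries, against 2096 to 8044 in the 8 stimulated Scx+ libraries and 319 to 593 in the controls. All 10 tendon markers examined were above 0 in every library, as were 13703 of the 24972 genes listed. These markers, Scx among them, took 4.17% to 6.57% of the signal in Scx- day 7 and 6.32% to 9.86% in Scx+ day 7. At day 14 they took 1.19% to 7.66% in Scx- and 6.39% to 9.73% in Scx+, against 0.280% to 0.921% in the controls. The part of tendon cell content in the results below was not tested. Skeletal muscle genes, a list of 22, took 24.8% to 29.6% of the signal in the controls, so muscle RNA was a large part of the control libraries. In the stimulated libraries that share was 0.388% to 6.35% in Scx- day 7, 0.0349% to 2.21% in Scx+ day 7, 4.41% to 19.4% in Scx- day 14 and 0.282% to 8.91% in Scx+ day 14. The Scx- day 14 libraries fell into a pair with 16.5% and 19.4% (replicates 1 and 2) and a pair with 4.58% and 4.41% (replicates 3 and 4).

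The fibulin family split between genes that were higher in every stimulated group and genes that were not, so the promoter windows of 2 of each kind are shown. Each is the 250 bases before a transcription start in RefSeq (GRCm38.p6), the first listed where a gene has several, written 5′ to 3′ on the gene's strand, with E-boxes in capitals. The E-box, CANNTG, is the core sequence bound by basic helix-loop-helix factors, the class to which scleraxis belongs. Fbln5 (chr12:101819120-101819369, minus strand) and Efemp2 (chr19:5473696-5473945, plus strand) were higher in all 4 stimulated groups. Fbln1 (chr15:85205699-85205948, plus strand) and Efemp1 (chr11:28852955-28853204, plus strand) passed in none.
Fbln5: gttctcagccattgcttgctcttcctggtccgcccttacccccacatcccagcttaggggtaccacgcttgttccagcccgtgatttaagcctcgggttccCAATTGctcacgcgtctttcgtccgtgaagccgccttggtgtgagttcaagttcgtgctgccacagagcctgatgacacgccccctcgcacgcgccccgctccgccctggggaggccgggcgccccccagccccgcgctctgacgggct
Efemp2: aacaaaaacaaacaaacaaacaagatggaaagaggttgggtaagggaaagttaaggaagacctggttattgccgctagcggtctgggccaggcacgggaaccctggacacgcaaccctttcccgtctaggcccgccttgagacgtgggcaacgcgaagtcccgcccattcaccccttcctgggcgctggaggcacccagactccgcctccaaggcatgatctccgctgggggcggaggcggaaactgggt
Fbln1: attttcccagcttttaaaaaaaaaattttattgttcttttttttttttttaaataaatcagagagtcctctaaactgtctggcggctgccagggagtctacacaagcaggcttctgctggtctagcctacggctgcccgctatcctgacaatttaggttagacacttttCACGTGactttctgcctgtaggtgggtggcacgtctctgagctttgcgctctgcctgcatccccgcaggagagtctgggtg
Efemp1: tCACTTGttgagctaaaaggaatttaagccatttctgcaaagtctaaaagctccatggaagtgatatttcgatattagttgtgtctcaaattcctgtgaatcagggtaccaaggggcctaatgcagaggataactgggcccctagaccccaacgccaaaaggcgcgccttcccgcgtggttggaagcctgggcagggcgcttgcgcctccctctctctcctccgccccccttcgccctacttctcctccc
The search covered both strands. There was 1 CANNTG in the printed windows of Fbln5, Fbln1 and Efemp1 and 0 in that of Efemp2, and 66.2% of 32851 RefSeq promoter windows of this length held at least 1. In the printed windows the GC box GGGCGG occurred 2 times in Fbln5, 2 times in Efemp2, 0 times in Fbln1 and 1 time in Efemp1, against 32.7% of all windows with at least 1. None of these 4 windows held TATAAA, which 12.4% of all windows held. The counts depend on the start chosen. The other window of Fbln5 held 0 CANNTG and 0 GC boxes, that of Fbln1 held 2 and 1, and the other 2 of Efemp2 held 0 CANNTG and 5 GC boxes each, while Efemp1 has 1 window. The 1 window of Fbln2, higher in all 4 stimulated groups and not printed, held 1 CANNTG and 1 GC box. Its E-box read CATCTG, which 14.4% of all windows held on either strand. Both kinds of gene thus included a window with an E-box, and the letters are a description only. RefSeq windows were matched for 6 of the 10 genes.

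Each of the 10 genes lies at a single annotated locus in GENCODE M21 on GRCm38 (mm10). Eln spans chr5:134702593-134747323, Fbn1 chr2:125300594-125507993, Fbn2 chr18:58008623-58210487 and Fbln5 chr12:101746565-101819055, all on the minus strand. On the plus strand are Fbln1 at chr15:85205949-85286535, Fbln2 at chr6:91212455-91272540, Efemp1 at chr11:28853204-28926743, Efemp2 at chr19:5473954-5482517, Mfap4 at chr11:61485431-61488900 and Mfap5 at chr6:122505845-122529290. The merged exons sum to 1922 bases in Mfap4, the shortest of the 10, and to 13215 bases in Fbn2, the longest. Whether the libraries kept the strand is not stated, and the annotated gene Gm9913 overlaps an exon at the 5′ end of Fbn1.

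The first comparison set each stimulated group against the control, to ask how the elastic fibre genes stood in growing tendon. Of the 10 genes, 8 were higher and 0 lower in each of the 4 groups: Eln, Fbn1, Fbn2, Mfap4, Mfap5, Fbln2, Fbln5 and Efemp2. Fbln1 and Efemp1 passed in none. Among all tested genes, the share called higher against the control was 32.3% for Scx- day 7, 33.8% for Scx+ day 7, 25.5% for Scx- day 14 and 30.9% for Scx+ day 14, and the share called lower was 25.9%, 27.5%, 18.3% and 25% (limma, Benjamini-Hochberg adjusted over all tested genes, threshold 0.05). The median log2 fold change of the 10 genes was 2.75 in Scx- day 7, 2.53 in Scx+ day 7, 2.13 in Scx- day 14 and 2.55 in Scx+ day 14, beside 0.14, 0.18, 0.12 and 0.15 over all tested genes in those groups. For all 8 genes every stimulated library lay above every control library; among all tested genes 30.8%, 33.4%, 20.7% and 26.9% stood wholly above the control in Scx- day 7, Scx+ day 7, Scx- day 14 and Scx+ day 14. These 4 comparisons share the 3 control libraries. In whole tissue, fewer cells of a type and less RNA per cell cannot be told apart. The muscle share given above moved with this comparison. So did 11 adipocyte markers, all 11 of them lower in each of the 4 groups, with a median log2 fold change of -4.84 in Scx- day 7, -4.77 in Scx+ day 7, -3.23 in Scx- day 14 and -5.00 in Scx+ day 14. Their share was 0.0144% to 0.129% of the signal in the stimulated libraries, against 0.263% to 0.343% in the controls. Of 12 macrophage markers 11, 11, 7 and 9 were higher in those groups and 0 lower (median 2.28, 1.75, 0.99 and 1.30), with 0.104% to 0.831% of the signal, against 0.0417% to 0.0943% in the controls. The part of muscle, fat and macrophage content in the result was not tested. Without the muscle-rich pair of Scx- day 14 libraries, the 8 genes still passed in that group. The libraries left, replicates 3 and 4, stood farther from the controls in muscle share. This refit is therefore no test of the part of muscle.

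**Figure D1:**
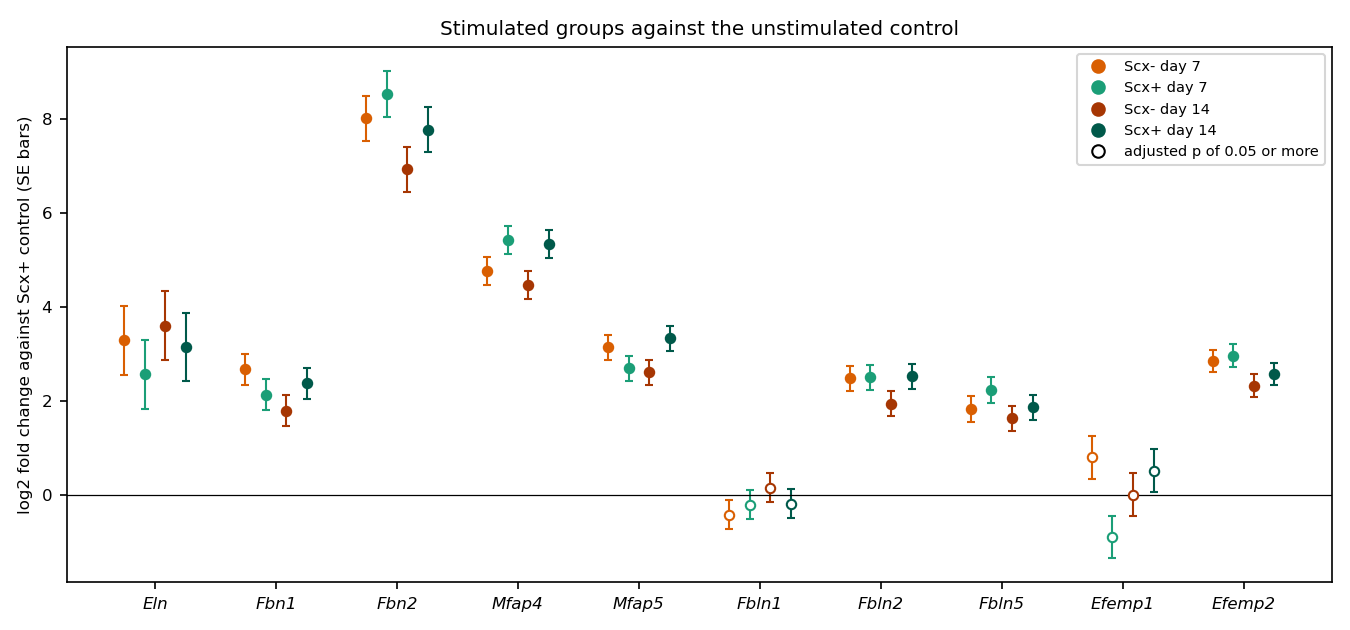
Log2 fold change of each of the 10 elastic fibre genes in the 4 stimulated groups against the Scx+ control (vertical axis; bars, SE of the fit; n = 4 libraries per stimulated group and 3 controls). Filled points passed the threshold: Fbn2 stands highest at 6.93 to 8.54, Mfap4 next at 4.46 to 5.44, and the open points are Fbln1 and Efemp1.

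Fbn2, the fibrillin best known from developing tissue, moved most. Its signal was 5777, 4418, 3071 and 4651 in Scx- day 7 (replicates 1 to 4, the order used throughout) and 6060, 7825, 5020 and 6453 in Scx+ day 7. At day 14 it was 3412, 547, 2246 and 4253 in Scx- and 5072, 3351, 2722 and 4063 in Scx+, against 15.3, 20 and 10.6 in the controls. The stimulated libraries lay far above the controls, and the lowest of them was Scx- day 14 replicate 2, the library with the highest muscle share of the 16. The log2 fold changes were 8.02, 8.54, 6.93 and 7.78 in Scx- day 7, Scx+ day 7, Scx- day 14 and Scx+ day 14 (SE 0.48; limma adjusted p = 4.91e-09, 3.13e-09, 5.53e-08 and 9.62e-09). As a ratio of group means, Fbn2 was 293, 415, 171 and 249 times the control in those groups.

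Fbn1, the main fibrillin of adult connective tissue, was higher too, but from a high control level. It had a signal of 63606, 83574, 92921 and 84124 in Scx- day 7 and 50449, 54241, 60939 and 55249 in Scx+ day 7. At day 14 it had 37402, 21076, 78329 and 59340 in Scx- and 70083, 48083, 87730 and 61430 in Scx+, against 10243, 12006 and 16398 in the controls. The 2 lowest stimulated libraries were Scx- day 14 replicates 1 and 2, and still stood above all controls. Log2 fold changes were 2.67 in Scx- day 7, 2.12 in Scx+ day 7, 1.79 in Scx- day 14 and 2.37 in Scx+ day 14 (SE 0.33; limma adjusted p at most 0.000447).

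The balance between the fibrillins was therefore compared within each library, as the ratio of signal per exon base. Fbn2 stood at 5.32% ± 2.21 of Fbn1 in Scx- day 7, 10.6% ± 2.34 in Scx+ day 7, 4.99% ± 2.96 in Scx- day 14 and 5.49% ± 1.78 in Scx+ day 14 (SD, n = 4 each), against 0.116% ± 0.050 in the controls (SD, n = 3). The lowest stimulated library, at 2.38%, lay above the highest control, at 0.153%. Such a ratio does not depend on the scaling of a library. At day 7 the range was 3.03% to 8.34% in Scx- and 7.56% to 13.2% in Scx+, so the genotypes overlapped.

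**Figure D2:**
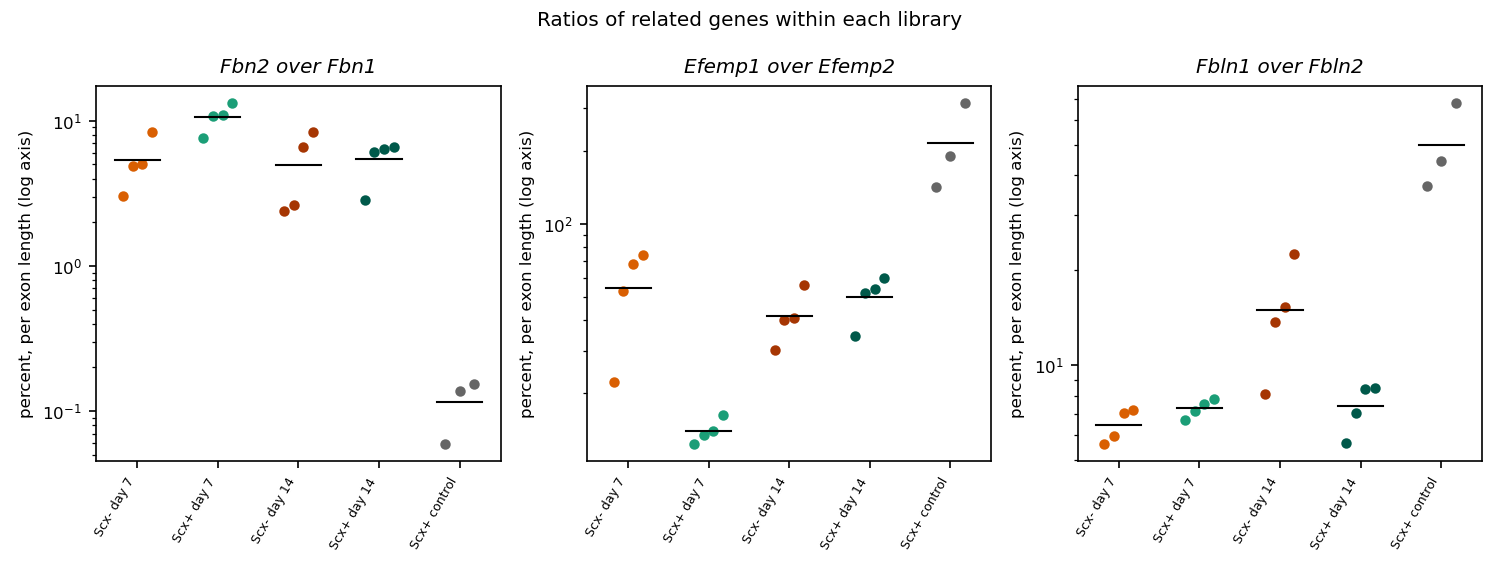
Ratios of signal per exon base within each library, in percent on log axes, for Fbn2 over Fbn1, Efemp1 over Efemp2 and Fbln1 over Fbln2. Points are libraries, drawn from low to high within a group, and lines are group means: Fbn2 over Fbn1 is lowest in the controls (mean 0.116%), and the other ratios are highest there (216% and 49.8%).

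Mfap4 encodes a glycoprotein that binds elastin and collagen. Its signal was 11558, 9615, 8419 and 14314 in Scx- day 7 and 25346, 16583, 12673 and 15941 in Scx+ day 7. At day 14 it was 7845, 6741, 14266 and 7591 in Scx- and 15209, 16259, 20297 and 13319 in Scx+, against 349, 282 and 614 in the controls. Stimulated and control libraries were wide apart, while Scx- and Scx+ overlapped in part at each day. The log2 fold change against the control was 4.77 in Scx- day 7, 5.44 in Scx+ day 7, 4.46 in Scx- day 14 and 5.35 in Scx+ day 14 (SE 0.30; limma adjusted p at most 2.13e-08). Per exon length, Mfap4 averaged 216 units per kilobase in the controls, the ninth level among the 10 genes, and 9176 in Scx+ day 7, the second after Fbln2 at 9277.

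Mfap5 encodes a small microfibril glycoprotein that binds fibrillins. It had 19966, 27316, 23359 and 37762 in Scx- day 7, 25240, 18470, 17083 and 17304 in Scx+ day 7, 13730, 13610, 20899 and 27959 in Scx- day 14 and 30622, 25520, 33446 and 31495 in Scx+ day 14, against 2481, 2624 and 4061 in the controls. All stimulated libraries lay above the controls, and the muscle-rich pair of Scx- day 14 was lowest among them. The log2 fold change was 3.14, 2.69, 2.61 and 3.34 in those 4 groups (SE 0.27; limma adjusted p at most 2.04e-06).

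Eln, the gene of the elastic core itself, was the most uneven of the 10 among the libraries of each day 14 group. Its signal was 51931, 48842, 14941 and 38537 in Scx- day 7 and 16391, 29782, 15191 and 26285 in Scx+ day 7. At day 14 it was 35367, 19052, 221000 and 22927 in Scx- and 14034, 18788, 46531 and 79510 in Scx+, against 4879, 2933 and 3128 in the controls. Every stimulated library was above the controls, and 1 library, Scx- day 14 replicate 3, stood far above the rest of its group. The coefficient of variation was 131% in Scx- day 14 and 75.9% in Scx+ day 14, against 61.4% for Fbn2 and 41.8% for Efemp1, the next highest in those groups. In Scx- day 7 it was 43.5%, below the 58.4% of Efemp1, and in the controls it was 29.4%, below the 51.5% of Fbln1. The log2 fold change against the control was 3.29 in Scx- day 7, 2.56 in Scx+ day 7, 3.60 in Scx- day 14 and 3.15 in Scx+ day 14 (SE 0.73; limma adjusted p = 0.00119, 0.00635, 0.00107 and 0.00182). Without that library it was 2.81 in Scx- day 14 (adjusted p = 0.00149). In the same library, 5 of 12 vascular smooth muscle and pericyte markers (Rgs5, Cspg4, Notch3, Kcnj8 and Pdgfrb) also stood above the other Scx- day 14 libraries, 2 (Tagln and Cnn1) stood below them and 5 lay between, and their part in the Eln value was not tested.

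**Figure D3:**
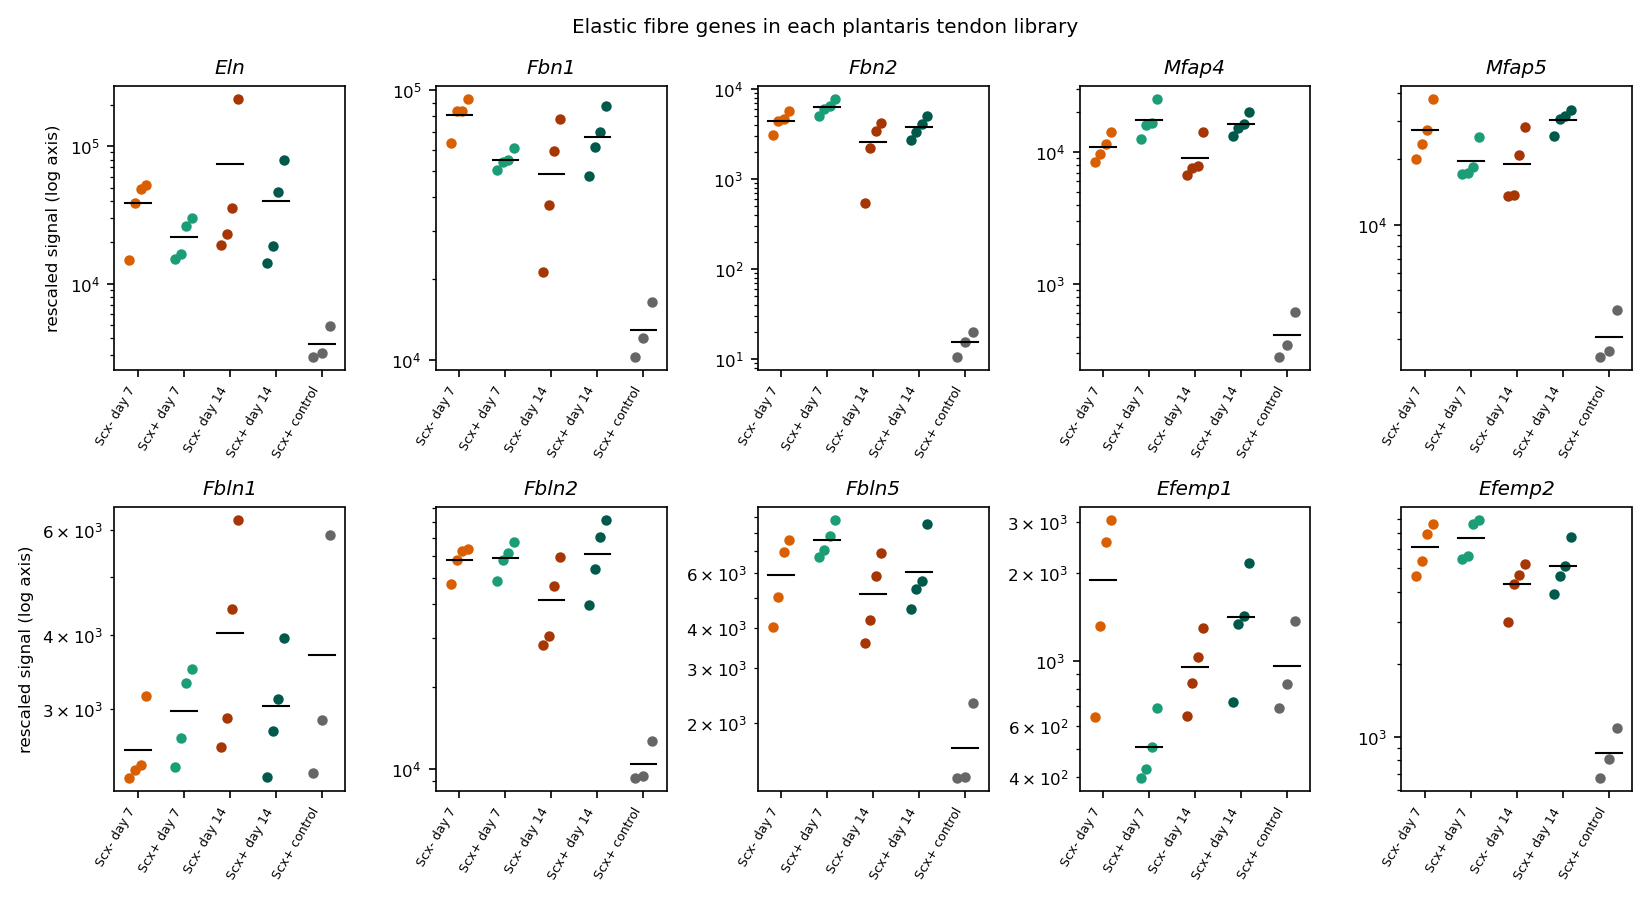
Rescaled signal (log axes) of the 10 elastic fibre genes in each of the 19 libraries. Points are libraries, drawn from low to high within a group, and lines are group means. For 8 genes all stimulated libraries lie above the 3 controls, Fbln1 and Efemp1 overlap them, and 1 Scx- day 14 library stands out for Eln at 221000.

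The fibulins did not move as a family. Fbln2, which binds fibrillin and other matrix proteins, ranged from 28494 to 81206 over the stimulated libraries, against 9225 to 12670 in the controls. Its log2 fold change was 2.48 in Scx- day 7, 2.51 in Scx+ day 7, 1.93 in Scx- day 14 and 2.52 in Scx+ day 14 (SE 0.27; limma adjusted p at most 3.90e-05). Fbln5, needed to assemble elastic fibres in the mouse, ranged from 3599 to 8781 over the stimulated libraries, against 1338 to 2326 in the controls. These were the smallest changes among the 8 genes in 3 of the 4 groups: 1.83 in Scx- day 7, 1.62 in Scx- day 14 and 1.86 in Scx+ day 14, and 2.23 in Scx+ day 7 (SE 0.27; limma adjusted p at most 0.000205). Efemp2, whose protein brings lysyl oxidase to tropoelastin, ranged from 2988 to 7909 over the stimulated libraries, against 673 to 1087 in the controls. Its log2 fold changes were 2.84, 2.97, 2.32 and 2.57 in Scx- day 7, Scx+ day 7, Scx- day 14 and Scx+ day 14 (SE 0.24; limma adjusted p at most 2.17e-06).

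Fbln1, a fibulin of basement membranes and elastic fibres, did not pass. It had 3160, 2372, 2297 and 2422 in Scx- day 7, 3319, 3498, 2402 and 2681 in Scx+ day 7, 2898, 4412, 6216 and 2593 in Scx- day 14 and 2755, 2312, 3121 and 3946 in Scx+ day 14, against 5884, 2346 and 2878 in the controls. All groups overlapped the controls. The log2 fold changes were -0.43, -0.21, 0.15 and -0.20 ± 0.31 in Scx- day 7, Scx+ day 7, Scx- day 14 and Scx+ day 14 (SE; limma adjusted p = 0.241, 0.558, 0.712 and 0.601), and with library totals as the scale, which moved the median of all genes by 0.46 to 0.67, they were 0.27, 0.46, 0.63 and 0.41, with none past the threshold. Set against Fbln2 in the same library per exon base, Fbln1 stood at 6.47% ± 0.786 in Scx- day 7, 7.32% ± 0.474 in Scx+ day 7, 14.9% ± 5.97 in Scx- day 14 and 7.42% ± 1.33 in Scx+ day 14 (SD, n = 4 each), against 49.8% ± 16.0 in the controls (SD, n = 3).

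Efemp1, a fibulin found in vessel walls and fascia, did not pass against the control either, and its group means lay on both sides of the control. It had 645, 1314, 3039 and 2564 in Scx- day 7 and 692, 508, 396 and 426 in Scx+ day 7. At day 14 it had 647, 1294, 1037 and 843 in Scx- and 2167, 1343, 1429 and 723 in Scx+, against 832, 691 and 1369 in the controls. The Scx+ day 7 libraries were the lowest group, but replicate 1 there just overlapped the lowest control. Against the control the log2 fold changes were 0.79, -0.90, 0.00 and 0.51 ± 0.45 in Scx- day 7, Scx+ day 7, Scx- day 14 and Scx+ day 14 (SE; limma adjusted p = 0.140, 0.0930, 0.998 and 0.348). In a fit of only the groups compared, the value of -0.90 in Scx+ day 7 had a limma adjusted p of 0.0232. Over all alternatives it ran from -1.11 to -0.23 (limma adjusted p = 0.0232 to 0.662). The authors' deposited table gives it as -0.92 with an adjusted p of 0.00783. With library totals as the scale the values were 1.49 in Scx- day 7 and 1.12 in Scx+ day 14, both past the threshold (limma adjusted p = 0.00722 and 0.0365). That scale moved the median of all genes by 0.67 and 0.58 in these 2 comparisons.

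Per exon length, the order of the 10 genes also differed between growing and control tendon. The length is that of the merged exons of all annotated transcripts, which can exceed the transcript expressed. Whether the deposited values already carry a length term is not stated. Levels compared between genes, here and above, depend on both. In Scx+ day 7 the mean level per kilobase was 9277 ± 1239 for Fbln2, 9176 ± 2819 for Mfap4, 5440 ± 1075 for Mfap5, 4553 ± 358 for Fbn1, 2706 ± 893 for Eln, 1760 ± 341 for Efemp2, 1101 ± 132 for Fbln5, 681 ± 119 for Fbln1, 480 ± 87.8 for Fbn2 and 248 ± 65.2 for Efemp1 (SD, n = 4). Fbln2 and Mfap4, and likewise Mfap5 and Fbn1, differed by less than the larger of their SDs. In the controls the order was Fbln2 at 1640 ± 303, Fbn1 at 1062 ± 261, Mfap5 at 851 ± 244, Fbln1 at 848 ± 437, Efemp1 at 473 ± 176, Eln at 450 ± 132, Fbln5 at 242 ± 82.0, Efemp2 at 226 ± 55.7, Mfap4 at 216 ± 91.4 and Fbn2 at 1.16 ± 0.355 (SD, n = 3). Every pair of neighbours in the control order except Fbln2 with Fbn1, Eln with Fbln5, and Mfap4 with Fbn2 differed by less than the larger SD. The 10 genes together took 0.563% ± 0.0723 of the signal in Scx- day 7, 0.461% ± 0.0298 in Scx+ day 7, 0.443% ± 0.316 in Scx- day 14 and 0.519% ± 0.103 in Scx+ day 14, against 0.0555% ± 0.0109 in the controls. A list of 10 fibroblast markers took 2.48% to 3.95%, 3.17% to 4.47%, 1.13% to 6.07% and 3.04% to 5.43% in those groups, against 0.238% to 0.535% in the controls. The median log2 fold change of these markers was 1.11, 0.52, 1.19 and 1.46. The part of fibroblast content in the results was not tested.

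The second question was whether the loss of Scx altered these genes within stimulated tendon. At day 7, 0 of the 10 passed between Scx- and Scx+ by limma, where 0.77% of all tested genes passed. By the same test 2 had an unadjusted p under 0.05. How many of all tested genes had such a p was not counted, here or in the comparisons below, so these counts carry no background. The signs were mixed, 4 positive and 6 negative, and the median log2 difference was -0.07, beside 0.02 over all tested genes. Efemp1 had the largest difference, 1.70 ± 0.42 (SE; limma adjusted p = 0.0815), and its mean signal was 1891 ± 1104 in the Scx- libraries, against 505 ± 133 in the Scx+ libraries (SD, n = 4 each). Only Scx- replicate 1, at 645, fell within the Scx+ range. Without that library the difference was 2.13 (adjusted p = 0.00597), over all alternatives it was 1.39 to 2.13 (adjusted p = 0.00597 to 0.270), and the authors' deposited table gives 1.91 with an adjusted p of 0.000331. Within libraries, Efemp1 stood at 22.3% to 74.3% of Efemp2 per exon base in Scx- day 7 and at 12.4% to 16.3% in Scx+ day 7, with no overlap. Among the ratios computed, Mfap4 over Fbn1 also did not overlap, at 57.2% to 115% in Scx- day 7 and 131% to 317% in Scx+ day 7. The others did, and how often ratios of other genes stand apart was not counted.

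Fbn1 was the only member whose genotypes did not overlap at day 7, where 3.71% of all tested genes were likewise higher with no overlap. The share lower with no overlap was not counted, so the share in either direction exceeds this. The mean of Fbn1 was 81056 ± 12396 in Scx- libraries, against 55219 ± 4337 in Scx+ libraries (SD, n = 4 each), a log2 difference of 0.54 ± 0.31 (SE; limma adjusted p = 0.782). The authors' deposited table gives 0.55 with an adjusted p of 0.00739. Mfap4 had the other unadjusted p under 0.05, with a difference of -0.67 ± 0.28 (SE; limma adjusted p = 0.551). The remaining 7 differences ran from -0.52 for Fbn2 to 0.73 for Eln, each with an adjusted p of at least 0.782.

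**Figure D4:**
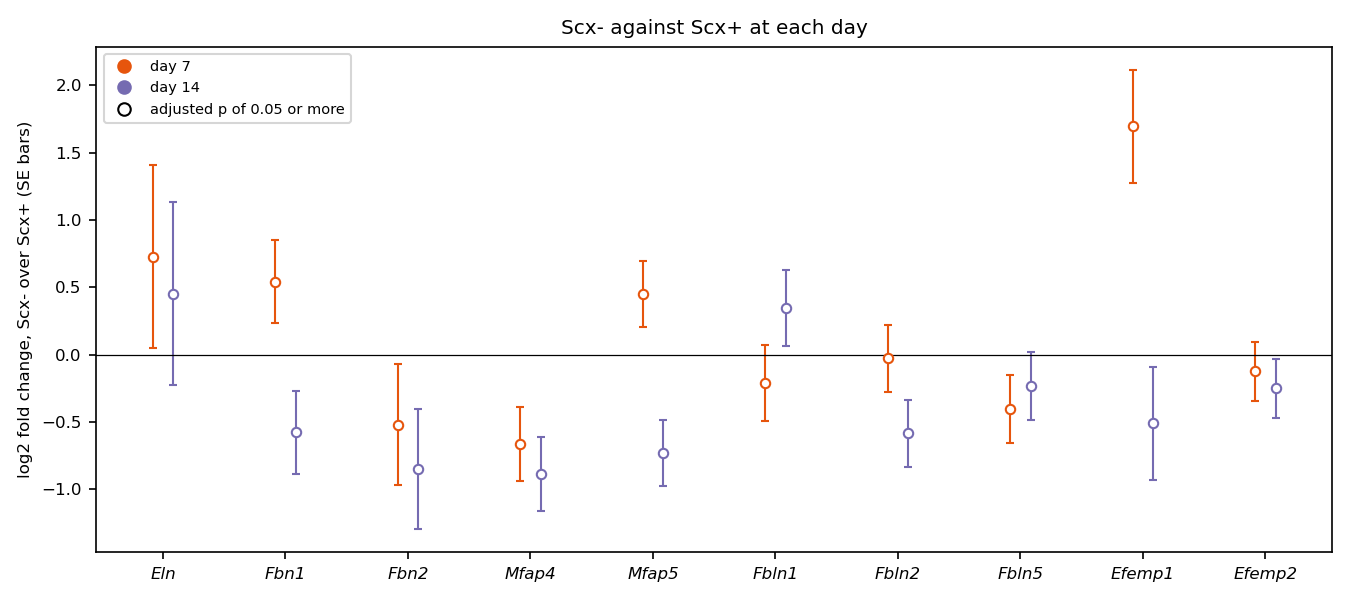
Log2 difference between Scx- and Scx+ (vertical axis; bars, SE of the fit; n = 4 libraries per group) for each elastic fibre gene at day 7 and at day 14. All 20 points are open, as none passed the threshold. Efemp1 at day 7 is highest at 1.70, and at day 14 all but Eln and Fbln1 lie below 0.

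At day 14 again 0 of the 10 passed by limma, where 0.517% of all tested genes passed. An unadjusted p under 0.05 was found for 3 (share of all genes at that level not counted). Here 8 of the 10 differences were negative, with a median of -0.54 beside 0.02 over all tested genes. Without the muscle-rich Scx- pair, Scx- replicates 3 and 4 were left. In that fit 6 were negative with a median of -0.09, and Fbn1 and Fbln5 took the other sign, at 0.06 and 0.12. The 3 were Mfap4, at -0.89 ± 0.28, Mfap5, at -0.73 ± 0.25, and Fbln2, at -0.58 ± 0.25 (SE; limma adjusted p = 0.193, 0.228 and 0.303). Mfap4 averaged 9111 ± 3469 in Scx- libraries, against 16271 ± 2947 in Scx+ libraries (SD, n = 4 each), and only Scx- replicate 3 reached the Scx+ range. Without it the difference was -1.12 (limma adjusted p = 0.0487). None of the 10 genes had groups that did not overlap at day 14, against 4.81% of all tested genes.

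The muscle share moved with this comparison, at 4.41% to 19.4% in Scx- and 0.282% to 8.91% in Scx+. Without that pair the difference was -0.63 for Mfap4, -0.32 for Mfap5 and -0.17 for Fbln2 (limma adjusted p = 0.858, 0.995 and 1). In this fit Scx- replicates 3 and 4 were left, and replicate 3 had the highest Mfap4 signal of its group. The smaller number of libraries and the lower muscle share cannot be told apart here. In a fit with that list's mean as covariate the differences for Mfap4 and Mfap5 were -0.73 and -0.56 (adjusted p = 0.507 and 0.582). On the authors' scale without rescaling, which moved the median of all genes by -0.23, Mfap4 and Mfap5 passed as lower, at -1.13 and -0.97 (limma adjusted p = 0.0268 and 0.0310). On that scale 993 of 16622 genes passed, against 86 of 16625 after rescaling. The authors' deposited table gives Mfap4 as -0.76 and Mfap5 as -0.65, with adjusted p-values of 0.260 and 0.334. The difference for Eln was 0.45 ± 0.68 (SE; limma adjusted p = 0.780) and took the other sign, -0.34, without Scx- replicate 3.

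The genotype effects at both days were set against each other. Of the 10 genes, 0 passed by limma, where 0.018% of all tested genes passed. An unadjusted p under 0.05 was found for 3 (share of all genes at that level not counted). The effect at day 14 less that at day 7 was -2.20 ± 0.59 for Efemp1, -1.18 ± 0.35 for Mfap5 and -1.12 ± 0.43 for Fbn1 (SE, n = 4 in each of 4 groups; limma adjusted p = 0.332, 0.419 and 0.886). For these genes the Scx- mean was the higher at day 7 and the lower at day 14, but without the muscle-rich Scx- pair Fbn1 was no longer lower at day 14. With Scx- day 14 replicates 3 and 4 left, the values were -2.19 for Efemp1, -0.77 for Mfap5 and -0.48 for Fbn1 (limma adjusted p = 0.544, 0.844 and 0.987). Efemp1 passed without Scx- day 7 replicate 1, at -2.64 (adjusted p = 0.0438). At day 7 Mfap5 averaged 27101 ± 7716 in Scx- libraries, against 19524 ± 3859 in Scx+ libraries, and at day 14 it averaged 19050 ± 6848 in Scx- libraries, against 30270 ± 3380 in Scx+ libraries (SD, n = 4 each).

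Day 14 was compared with day 7 within each genotype. In Scx+ 0 of the 10 genes passed by limma, where 0.0301% of all tested genes passed. An unadjusted p under 0.05 was found for 2 (share of all genes at that level not counted). Those 2, Efemp1 at 1.41 ± 0.42 and Mfap5 at 0.64 ± 0.25 (SE; limma adjusted p = 0.215 and 0.334), were also the 2 whose day 14 libraries all lay above those of day 7, as did 3.78% of all tested genes. The share of all genes that lay wholly below was not counted. Efemp1 averaged 1415 ± 592 at day 14 and 505 ± 133 at day 7 (SD, n = 4 each). The authors' deposited table gives Efemp1 as 1.49, Mfap5 as 0.64 and Fbn2 as -0.73 in this comparison, with adjusted p-values of 0.000301, 0.0119 and 0.0358.

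In Scx- 0 of the 10 passed by limma, where 5.25% of all tested genes passed. An unadjusted p under 0.05 was found for 5 (share of all genes at that level not counted). Every member had overlapping days, whereas 12.5% of all tested genes did not overlap. Of the differences 8 were negative, with a median of -0.53 beside 0.02 over all tested genes. The 5 were Fbn2 at -1.09 ± 0.45, Fbn1 at -0.88 ± 0.31, Fbln2 at -0.55 ± 0.25, Mfap5 at -0.53 ± 0.25 and Efemp2 at -0.52 ± 0.22 (SE; limma adjusted p = 0.169, 0.105, 0.206, 0.212 and 0.180). Without the muscle-rich pair of Scx- day 14 (leaving replicates 3 and 4) the values were -0.50, -0.24, -0.13, -0.12 and -0.29 for these 5 (limma adjusted p = 0.495, 0.735, 0.886, 0.895 and 0.663). With the muscle list's mean as covariate, Fbn1 was at -0.74 and Mfap5 at -0.35 (limma adjusted p = 0.248 and 0.517). Fbn1 passed without Scx- day 14 replicate 3, at -1.16 (limma adjusted p = 0.0250), a fit that keeps the muscle-rich pair. On the authors' scale without rescaling, where the median of all genes moved by -0.25, Fbn1, Fbln2, Efemp2 and Mfap5 passed as lower. On that scale 2604 of 16622 genes passed, against 873 of 16625 after rescaling. The authors' deposited table gives -0.67, -0.42, -0.42 and -0.50 for Fbn1, Fbln2, Efemp2 and Mfap5, with adjusted p-values of 0.277, 0.377, 0.319 and 0.346.

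The other genes of elastic fibre biology were read from lists. Of 24 tested microfibril and elastic fibre components beyond the 10, the number higher and lower against the control was 14 and 1 in Scx- day 7, 15 and 1 in Scx+ day 7, 10 and 1 in Scx- day 14, and 16 and 1 in Scx+ day 14. Among all tested genes 32.3%, 33.8%, 25.5% and 30.9% were higher in those groups, and 25.9%, 27.5%, 18.3% and 25% lower. The same shares stand beside the counts of the lists below. Leading the 24 were Emilin1, whose protein links elastin to microfibrils, Mfap2, the close relative of Mfap5, and Bgn, a proteoglycan. Emilin1 was at 3.78 ± 0.30, 4.25 ± 0.30, 2.44 ± 0.30 and 3.40 ± 0.30, and Mfap2 at 3.05 ± 0.37, 3.91 ± 0.37, 3.69 ± 0.37 and 4.04 ± 0.37, in those groups (log2 fold change ± SE; limma adjusted p at most 1.40e-05). Vtn, which encodes vitronectin, was the lower gene in 3 groups, and Ltbp2, a microfibril-bound relative of the fibrillins, was lower in Scx- day 14, at -1.09 ± 0.39 (adjusted p = 0.0293). None of the 24 passed between genotypes at either day, where 0.77% of all tested genes passed at day 7 and 0.517% at day 14. In Scx- day 14 against Scx- day 7, Ltbp2 fell by 1.89 log2 units, Emilin1 fell by 1.34 and Fbln7, a further fibulin, rose by 3.43 (limma adjusted p = 0.00507, 0.00971 and 0.0155), among 2 higher and 3 lower. In Scx+ 0 of the 24 passed between the days, where 0.0301% of all tested genes passed. The signal of these 3 genes moved the same way there. Ltbp2 was at 8115 to 14469 at day 7 and 2897 to 6442 at day 14. Emilin1 was at 14271 to 19151 and 6645 to 13079, and Fbln7 at 1211 to 1608 and 3295 to 5841.

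Of 9 tested cross-linking and processing enzymes, 8 were higher in Scx- day 7, 8 in Scx+ day 7, 7 in Scx- day 14 and 8 in Scx+ day 14 against the control, and 0 lower. Loxl1, which cross-links elastin with the help of Fbln5 in the mouse, was at 3.31, 3.16, 2.95 and 3.28 ± 0.29, and Lox, the main lysyl oxidase, at 4.42, 4.44, 3.15 and 4.47 ± 0.41 (log2 fold change ± SE; limma adjusted p at most 2.08e-05). The signal of Lox was 61898 to 124383 in Scx- day 7, 66735 to 120703 in Scx+ day 7, 23270 to 64073 in Scx- day 14 and 59403 to 113092 in Scx+ day 14, against 2539 to 8649 in the controls. Between genotypes the 1 gene of this list that passed was Loxl4 at day 14, which fell by 1.39 ± 0.30 log2 units in Scx- (SE; limma adjusted p = 0.0464), with 363, 259, 807 and 308 in Scx- and 1087, 943, 900 and 1199 in Scx+. The Loxl4 libraries did not overlap, like those of 4.81% of all tested genes at day 14. Without the muscle-rich pair (Scx- replicates 1 and 2, leaving 3 and 4), 8 of 16473 genes passed in this comparison, against 86 of 16625 with it. Whether Loxl4 was among the 8 was not recorded.

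Proteases that can cleave elastin were higher too, 8 of 10 tested in Scx- day 7, 8 in Scx+ day 7, 7 in Scx- day 14 and 8 in Scx+ day 14, with 0 lower. Mmp14, a membrane-bound metalloproteinase, led at 4.39, 5.05, 4.14 and 4.68 ± 0.32, and no gene of the list passed between genotypes at either day (log2 fold change ± SE; limma adjusted p at most 1.43e-07). In Scx- day 14 against Scx- day 7, Ctss, an elastin-cleaving cathepsin of macrophages, fell by 1.69 log2 units (limma adjusted p = 0.00466). A list of 12 macrophage markers took 0.104% to 0.280% of the signal in Scx- day 14 and 0.355% to 0.831% in Scx- day 7, and its part in this result was not tested. In Scx+, where 0 of the 10 proteases passed between the days, Ctss was at 15181 to 25387 at day 7 and 11135 to 17260 at day 14. Of 13 tested receptor genes, the number higher and lower was 9 and 0 in Scx- day 7, 11 and 2 in Scx+ day 7, 6 and 0 in Scx- day 14, and 8 and 0 in Scx+ day 14. Glb1, the gene of lysosomal beta-galactosidase and, by splicing in human, of the elastin-binding protein, was at 2.21, 2.26, 1.77 and 2.11 ± 0.18 (log2 fold change ± SE; limma adjusted p at most 1.49e-06). None of the 13 passed between genotypes at either day.

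The genes most like each member in pattern were ranked by Pearson correlation of log2 signal over the 19 libraries, among the 11523 genes that averaged 5 ppm or more of a library. The libraries share the large step between control and stimulated tendon, so these values describe likeness and carry no test. Fbn2 was most like Adam12, Tnn and Postn (r = 0.99, 0.98 and 0.98), and Mfap4 most like Cthrc1, Postn and Pheta2 (0.99, 0.98 and 0.98). Fbn1 was most like Pcdh19, Enox1 and Tmem164 (0.96, 0.96 and 0.94), and Mfap5 most like Vmp1, Fstl1 and Vgll3 (0.98, 0.97 and 0.97). For Fbln2 the nearest were Kirrel, Mfsd10 and Sorcs2 (0.98 each), for Fbln5 Crtap, Mettl9 and Gnai2 (0.97, 0.96 and 0.96), and for Efemp2 Fkbp11, Glb1 and Cmtm3 (0.98 each). The members outside this common pattern, and Eln, had weaker neighbours: C1ra, Abca1 and Wisp2 for Eln (0.89, 0.89 and 0.87), Ace, Ptpru and Tcf7l1 for Fbln1 (0.76, 0.74 and 0.72), and Dpp4, Ly6a and Adamts5 for Efemp1 (0.73, 0.71 and 0.70). Dpp4 and Ly6a are markers of fibroblast progenitors.

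Among the members themselves the same division was seen over the 19 libraries. Fbn2 correlated with Mfap4, Fbln2 and Efemp2 at r = 0.96, 0.95 and 0.94, and with Fbln1 and Efemp1 at -0.24 and -0.06. After the group means were removed, so that only differences between libraries of a group remained, Fbn2 with Mfap4 had r = 0.04. The highest value was then that of Efemp1 with Efemp2, at 0.67, followed by Eln with Fbln2, at 0.65.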

How the data were processed

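The deposited table of signal per gene and library was made by the authors, and the submitters' processing notes name STAR, FastQC and DESeq2 with mm10 as the build, giving neither versions nor roles. The values are not whole numbers: low values recur in steps, but only 23.2% to 59.3% of them lay within 0.1 of a whole multiple of a step (20% by chance), so reads were not recovered and depth is unknown. The authors' deposited table of comparisons holds log2 fold changes and adjusted p-values, and served only where it is named as the source.

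The signal was rescaled by medians of ratios over 13703 genes above 0 in all 19 libraries (factors 0.838 to 1.09). Genes that reached a value of 10 in 3 or more libraries were fitted as log2(value + 2) with limma 3.58.1 in R 4.3.3, which understates the change of low genes. All 5 groups were in 1 fit with a mean-variance trend and robust moderation, and p-values were Benjamini-Hochberg adjusted over 16625 genes at a threshold of 0.05. The procedure was tested on simulated data.

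The members and lists were chosen with earlier results of these data known. All 10 members are named in every comparison. Of each other list, the rule names the 3 genes with the smallest p among those that passed, of which some are left out for length; Vtn, and Ltbp2 against the control, were chosen after their values were seen. Of the correlations between members, those printed were likewise chosen after their values were seen. The alternatives were library totals, a trimmed mean of M values, no rescaling, no filter, pseudocounts of 1 and 8, the replicate number as a block, only the groups compared, the mean of the muscle list as a covariate (not against the control), each library left out and the muscle-rich pair left out.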

Additional observations from a re-analysis of the deposited data

Results flagged for a closer look

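Within each stimulated group of 4 libraries, every member was examined for a single library standing apart from the other 3. The signal was used for this without a log, unlike in the fits. Of 40 such groups 4 were marked. Chance gives about 2 if the signal is normally distributed, which was not checked, so the counts cannot be compared strictly. Gaps on the log2 scale were not computed. Eln in Scx- day 14 replicate 3 was at 221000, with a gap to its nearest neighbour of 0.919 of the group's range. In the same library Mfap4 was at 14266 (0.853). Fbln1 was at 3160 in Scx- day 7 replicate 1 (0.856), which is also the Scx- day 7 library with the lowest Efemp1. Mfap5 was at 25240 in Scx+ day 7 replicate 1 (0.830), only just past the limit for 4 libraries.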

How the results depend on the processing

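Every call of a member against the control kept its call and direction in all 488 refits under the alternatives. Of 1082 refits of results that had not passed, 14 passed and 49 changed sign without passing. On the deposited scale 2 members passed between genotypes at day 14 and 4 between Scx- day 14 and Scx- day 7. Among all genes 993 and 2604 of 16622 passed there, against 86 and 873 of 16625 after rescaling. In the authors' deposited table, which holds 9 of the members, 0 passed in either comparison. With each library left out in turn, the count against the control ran from 8 to 9 in Scx- day 7 and stayed at 8 in the other 3 groups. The 9 included Efemp1, at 1.23 without Scx- day 7 replicate 1 (limma adjusted p = 0.0137). The count ran from 0 to 1 for genotype at day 7, genotype at day 14, the difference of genotype effects and Scx- day 14 against day 7, and was 0 in each refit for Scx+ day 14 against day 7. With the replicate number as a block, 8 members passed in each comparison with the control and 0 in the others. Of 36 pairs of same-numbered libraries, 7 had a correlation over 0.1 between their deviations from the group means (range -0.43 to 0.35). Pairs of unlike number were not computed, so these values cannot show whether the numbers mark pairs. The main fit did not treat them as pairs. The depth behind each value is unknown, and 3 controls and 4 libraries per group limit the precision.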
